A study of Mus musculus with 6 samples.

Results

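Microglia and macrophage genes were followed in the cortex of newborn wild type and Fezf2 KO mice. The 33 genes were taken by symbol from the deposited table of 23016 genes, and all 33 were found, each in 1 row. Total RNA of dissected cerebral cortex was sequenced from 3 wild type (Fezf2+/+) and 3 Fezf2 KO (Fezf2-/-) pups at postnatal day 0, all bred from heterozygous parents. Each library came from 1 brain, and in both genotypes replicates 1 and 2 belonged to litter m1 and replicate 3 to litter m2. The labels name no other allele and no treatment, and do not describe how the Fezf2 allele was made. Values are normalised read counts (the reads of a gene after division by the size factor of its library), given as mean ± SD with n = 3 per genotype where averaged. Differences are on the log2 scale of the value plus 1, Fezf2 KO minus wild type, from limma, with p-values adjusted by Benjamini-Hochberg over the 17557 genes that reached a value of 10 in at least 3 libraries.

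Microglia are the resident macrophages of the brain. They descend from yolk sac progenitors, enter the neural tube before birth, depend on signalling through the colony-stimulating factor 1 receptor, and clear dying cells and synapses. Border macrophages of the meninges and of perivascular spaces share most of these genes but carry Mrc1, Cd163, Lyve1 and Pf4 at higher levels. Fezf2 itself is a transcription factor of cortical projection neurons and their progenitors. In RNA from whole cortex, fewer cells of a type and less RNA per cell cannot be told apart.

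The libraries held 44978380 to 52872577 gene reads. Fezf2 had 5030.3, 5928 and 5396 in the wild type libraries 1, 2 and 3, beside 1989, 1377 and 1533 in the Fezf2 KO libraries 1, 2 and 3, so the labels of genotype matched the targeted gene in all 6 libraries. Wild type 1 stood apart in genes of the meninges, the membranes that cover the brain: 10 such genes summed to 8632, 1649 and 1096 in the wild type libraries 1, 2 and 3, beside 1599, 1643 and 1433 in the Fezf2 KO libraries 1, 2 and 3. Fezf2 KO 1 stood apart in genes of the choroid plexus, whose 8 genes summed to 140.3, 113 and 79.9 in the wild type libraries 1, 2 and 3, beside 9821, 150.0 and 148 in the Fezf2 KO libraries 1, 2 and 3. Both libraries are kept in the values below, and for many genes the log2 difference with both left out (without the pair) is given as well. Markers of T, B and NK cells (6 in the table) summed to 10.3 to 18.3 in wild type and 10.6 to 16.2 in Fezf2 KO. Those of neutrophils, monocytes and mast cells (11 in the table) summed to 23.6 to 48.7 and 25.1 to 43.03. None of these 17 genes reached the level needed for testing, and Ccr2, the chemokine receptor of blood monocytes, had 1 read in 1 of 6 libraries. By contrast, Cx3cr1, P2ry12, Tmem119, Csf1r and C1qa, which define microglia, had values of at least 99.7 in every library.

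The microglia and macrophage genes were expressed in both genotypes, and none passed the test for a difference. Of the 33 members, 31 passed the filter and 0 of them changed by limma, where 0.712% of all genes tested did (0.404% higher and 0.308% lower). Here and below, changed means called at an adjusted p under 0.05. With that share over all genes, a count of 0 in a list of a few genes says little about that list. The smallest adjusted p was 0.21, that of Mrc1. EdgeR and DESeq2 on the recovered reads also called 0 members, while they called 0.689% and 2.3% of all genes. Their smallest adjusted p were 0.229 and 0.0503, both for Mrc1, and the latter was just above the threshold of 0.05. At an unadjusted p under 0.05, 3 members were lower in Fezf2 KO (Mrc1, Tlr2 and Olfml3) and 0 were higher by limma. That is 3 of 31, where 9.03% of all genes tested passed at that p, 4.37% lower and 4.66% higher. In 5 members (Mrc1, Tlr2, Olfml3, Irf8 and Aif1) all 3 Fezf2 KO libraries lay below all 3 wild type libraries, as in 6.85% of all genes. In 0 members they all lay above, as in 7.6% of all genes.

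The median log2 difference of the 31 members was -0.043, beside a median of 0.0025 over all genes tested. It was -0.043 with the other 2 members included. Values below 0 were found for 21 members and values above 0 for 10, where 49% of all genes were below 0. That count moved with the library left out: without wild type 1, 14 of 31 were below 0 and the median was 0.026. It was 22 without wild type 2 and 27 without wild type 3. Without Fezf2 KO 1, 2 or 3 it was 17, 26 and 19. Adjusted p-values above the threshold do not show equal levels, so the intervals are given: the 95% interval lay within a 1.5-fold change in either direction for 17 of 31 members and reached past it for 14. Over all genes tested, 74.4% had an interval within 1.5-fold. The members were measured less precisely than most genes, with a median SE of 0.182 on the log2 scale against 0.1003.

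**Figure D1:**
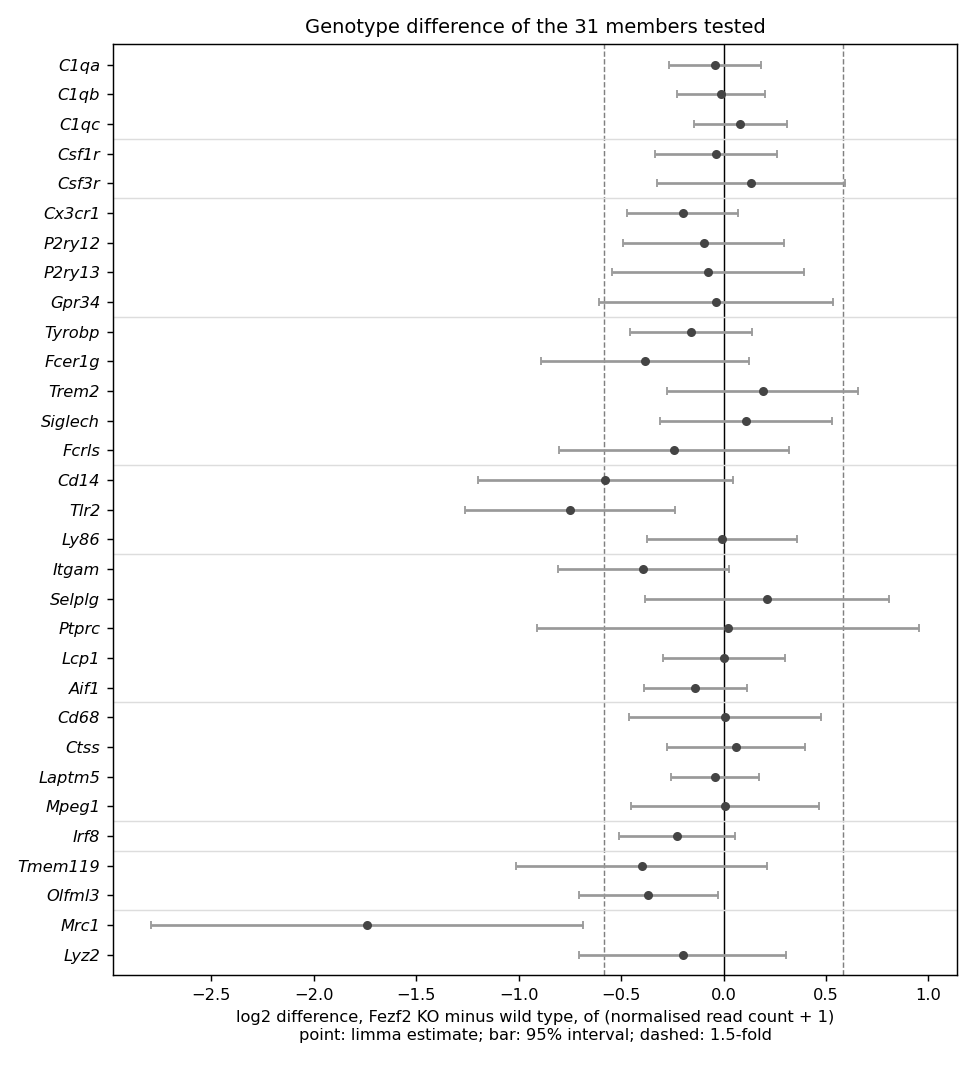
Log2 difference between genotypes (horizontal axis) for the 31 members that passed the filter (vertical axis, ordered and separated by role); points are limma estimates from 3 libraries per genotype, bars are 95% intervals, and dashed lines mark a 1.5-fold change. Most intervals cross 0, and those of Mrc1 (-2.79 to -0.69), Tlr2 (-1.26 to -0.23) and Olfml3 (-0.71 to -0.027) lie below it without passing adjustment over all genes.

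The first component of complement, C1q, is built from the products of 3 neighbouring genes, and in brain microglia are its main source. C1qa, the A chain, had 699, 647 and 557 in the wild type libraries 1, 2 and 3, beside 625, 617 and 598 in the Fezf2 KO libraries 1, 2 and 3. C1qb had 560.5, 519 and 465 in wild type against 506, 531 and 491 in Fezf2 KO, and C1qc had 642, 575 and 515 in wild type against 624, 627 and 577 in Fezf2 KO. The genotypes overlapped in all 3 genes, and in each of them wild type 1 was the highest and wild type 3 the lowest library. Their log2 differences were -0.043 (95% interval -0.27 to 0.18), -0.012 (-0.23 to 0.20) and 0.083 (-0.14 to 0.31), so a 1.5-fold change in either direction lies outside each interval. The highest library exceeded the lowest by 1.26-fold, 1.21-fold and 1.25-fold, among the smallest ranges of the members. Per kilobase of transcript, C1qa, C1qc and C1qb were the highest 3 of the 33 genes, with levels of 599.9, 493 and 471 over the 6 libraries. C1qa was the highest of the 3 in every library, while the ranges of C1qc and C1qb over the libraries overlapped. Tyrobp (383), Laptm5 (289.7) and Csf1r (254) followed on that scale, and Cybb (0.53), Cd163 (1.90) and Ptprc (3.11) were lowest. These levels use transcript lengths of GENCODE M21, which may differ from the gene models behind the counts.

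Csf1r, the receptor for CSF1 and IL-34 on which microglial survival depends, had 1428, 1121 and 1083 in the wild type libraries 1, 2 and 3, beside 1012.5, 1289 and 1232 in the Fezf2 KO libraries 1, 2 and 3. Fezf2 KO 1 was the lowest library and wild type 1 the highest, and of the other 4 both Fezf2 KO libraries lay above both wild type libraries (log2 -0.036, SE 0.129, limma adjusted p = 0.978). Without the pair the Csf1r difference was 0.19. Csf3r, the receptor for granulocyte colony-stimulating factor, had 69.5 ± 14.1 in wild type and 75.7 ± 10.1 in Fezf2 KO (log2 0.13, SE 0.200, limma adjusted p = 0.929). Its lowest value, 53.3, was that of wild type 3.

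**Figure D2:**
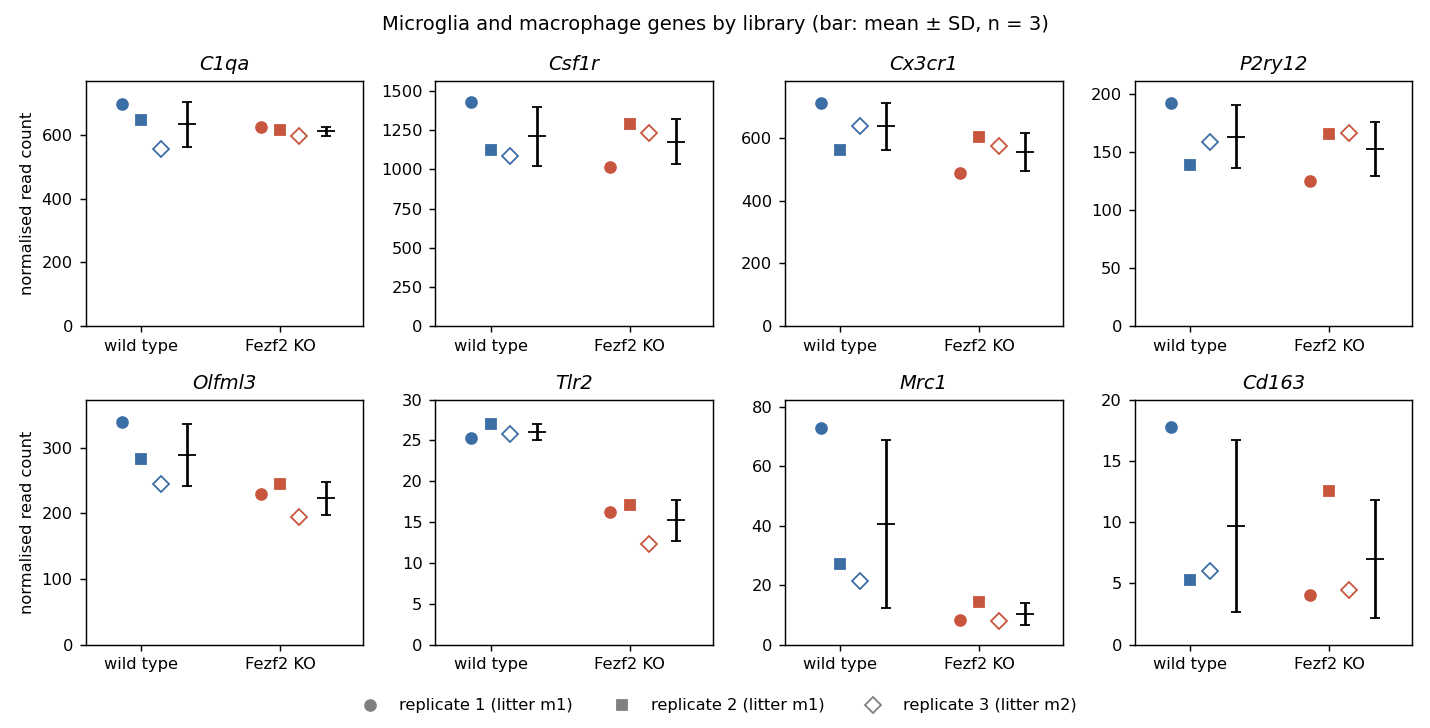
Normalised read count (vertical axis, starting at 0) of 8 members in each wild type and Fezf2 KO library; circles and squares are replicates 1 and 2 of litter m1, open diamonds are replicate 3 of litter m2, and black bars are mean ± SD of 3 libraries. Wild type and Fezf2 KO values interleave for C1qa, Csf1r, Cx3cr1, P2ry12 and Cd163, while for Olfml3, Tlr2 and Mrc1 every Fezf2 KO value lies below every wild type value.

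The G protein-coupled receptors by which microglia sense their surroundings all had log2 differences between -0.20 and -0.036, and 0 of 4 changed. Cx3cr1, the receptor for the neuronal chemokine fractalkine, had 713, 563 and 638.5 in the wild type libraries 1, 2 and 3, beside 488, 603 and 576 in the Fezf2 KO libraries 1, 2 and 3. Its Fezf2 KO values overlapped those of wild type, and the estimate was -0.20 (95% interval -0.47 to 0.072, limma adjusted p = 0.72). It ran from -0.29 to -0.11 with 1 library left out and was -0.024 without the pair. P2ry12, the ADP receptor that steers microglial processes, had 192, 139 and 158 in wild type against 125, 165 and 166 in Fezf2 KO. P2ry13, a second ADP receptor encoded beside it, had 87.02, 64.6 and 65.3 in wild type against 54.4, 70.95 and 81.2 in Fezf2 KO. Both ADP receptor genes were highest in wild type 1 and lowest in Fezf2 KO 1, and their log2 differences were -0.098 and -0.074, and 0.16 and 0.22 without the pair. Gpr34, a receptor for lysophosphatidylserine, was near the filter with 18.2 ± 3.73 in wild type and 17.6 ± 2.65 in Fezf2 KO (log2 -0.036, SE 0.249).

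Among immunoreceptors and their adaptors 0 of 5 changed. Tyrobp encodes DAP12, the adaptor through which TREM2 signals, and had 252, 223 and 208 in wild type against 178, 217 and 217 in Fezf2 KO (log2 -0.16, SE 0.130, limma adjusted p = 0.836), with a difference of 0.012 without the pair. Trem2, a receptor for lipids and apolipoproteins, had 169, 171 and 106 in wild type against 145, 179.6 and 176 in Fezf2 KO. Wild type 3 was the lowest library for Trem2 and the other 5 ranged from 145 to 179.6, so the genotype difference was small in litter m1 (log2 -0.079) and 0.73 in litter m2. Fcer1g, the common gamma chain of Fc receptors, had 58.95, 57.6 and 49.8 in wild type against 43.9, 53.9 and 31.8 in Fezf2 KO (log2 -0.38, SE 0.221, limma adjusted p = 0.706). Its lowest value was that of Fezf2 KO 3, and Fezf2 KO 2 lay within the wild type range. Without Fezf2 KO 3 the Fcer1g difference was -0.18. Siglech, a sialic acid-binding lectin of microglia, had 50.6 ± 0.95 in wild type and 55.2 ± 10.3 in Fezf2 KO (log2 0.11). Fcrls, an Fc receptor-like scavenger molecule that marks microglia, had 433, 458 and 521 in wild type against 286, 607 and 359 in Fezf2 KO. The Fezf2 KO libraries held both the lowest and the highest value of Fcrls, and its SD was 168 in Fezf2 KO against 45.1 in wild type (log2 -0.24, limma adjusted p = 0.884). Leaving out Fezf2 KO 1 gave a difference of -0.0066, and leaving out Fezf2 KO 2 gave -0.55.

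Of 3 pattern recognition genes 0 changed. Tlr2, which encodes a receptor for bacterial lipoproteins, had 25.3, 27.1 and 25.8 in the wild type libraries 1, 2 and 3, beside 16.2, 17.1 and 12.4 in the Fezf2 KO libraries 1, 2 and 3. All 3 Fezf2 KO values lay below all wild type values, and the SD was 0.921 in wild type and 2.51 in Fezf2 KO (log2 -0.75, SE 0.224, limma adjusted p = 0.284). In reads these were 27, 31 and 30 against 20, 19 and 14, so each value rests on few reads. The Tlr2 difference was -0.82 without wild type 1 and Fezf2 KO 1, and it did not pass adjustment with any library left out (limma adjusted p from 0.327 to 0.53). Cd14, a co-receptor for lipopolysaccharide, had 33.7, 21.8 and 30.1 in wild type against 13.8, 22.4 and 20.3 in Fezf2 KO (log2 -0.58, SE 0.271, limma adjusted p = 0.596). Fezf2 KO 2 lay above wild type 2 for Cd14, and without the pair the difference was -0.25. Ly86, which encodes MD-1, the partner of the receptor RP105, had 63.2 ± 5.90 in wild type and 62.8 ± 5.85 in Fezf2 KO (log2 -0.0090).

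Genes of adhesion, surface signalling and the cytoskeleton showed 0 changes among 5. Itgam, the alpha chain of the complement receptor CR3 and known as CD11b, had 123, 84.6 and 101 in wild type against 89.3, 69.2 and 74.2 in Fezf2 KO (log2 -0.39, SE 0.182, limma adjusted p = 0.594). Its Fezf2 KO 1 value lay above that of wild type 2, and the other Fezf2 KO libraries lay below all wild type libraries. Without wild type 1 the Itgam difference was -0.26. Aif1, which encodes the actin-binding protein IBA1 used to stain microglia, had 182, 189 and 182 in wild type against 179, 168 and 157 in Fezf2 KO. The groups did not overlap for Aif1, but the difference was small (log2 -0.14, SE 0.109, limma adjusted p = 0.825). Lcp1, the actin-bundling protein L-plastin, had 183 ± 13.2 in wild type and 184 ± 22.97 in Fezf2 KO (log2 0.0038). Selplg, a selectin ligand, had 134, 68.9 and 70.5 in wild type against 114, 90.7 and 98.02 in Fezf2 KO. Wild type 1 lay above and the other wild type libraries below all Fezf2 KO libraries. The log2 difference was 0.21 with all libraries and 0.52 without wild type 1 (limma adjusted p = 0.478). Ptprc, the leukocyte phosphatase CD45, had 16.8, 21.8 and 6.87 in wild type against 14.6, 16.2 and 11.5 in Fezf2 KO, with 100 reads over all libraries and an SE of 0.406.

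Of the lysosomal and phagosomal genes 0 of 4 tested changed, with log2 differences from -0.041 to 0.062. Laptm5, a lysosomal membrane protein of blood cells, had 828, 778 and 687 in wild type against 696, 788 and 743 in Fezf2 KO (95% interval -0.25 to 0.17). Ctss, the protease cathepsin S, had 294, 243 and 199 in wild type against 244, 265 and 249.9 in Fezf2 KO. Cd68, a lysosomal glycoprotein of phagocytes, had 87.02, 83.8 and 81.6 in wild type against 62.5, 107 and 90.1 in Fezf2 KO, and Mpeg1, the pore-forming protein perforin-2, had 337, 269 and 239.8 in wild type against 219, 365.5 and 275 in Fezf2 KO. For both Cd68 and Mpeg1 the lowest and the highest library were Fezf2 KO 1 and Fezf2 KO 2. Cybb, the catalytic subunit of the phagocyte NADPH oxidase, did not pass the filter: it had 17 reads in all 6 libraries together, with 0 in wild type 3, which allows up to 3 reads or 2.58 normalised counts.

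Irf8, the interferon regulatory factor needed for microglial development, had 153, 149 and 135 in wild type against 116, 131 and 125 in Fezf2 KO. The groups did not overlap, and the difference was -0.23 (SE 0.122, limma adjusted p = 0.678), or -0.15 without the pair. Tmem119, a surface marker of microglia, had 247, 120.4 and 136 in wild type against 132, 99.7 and 133 in Fezf2 KO. Wild type 1 held by far the highest value, and the other 5 libraries overlapped: without wild type 1 the log2 difference went from -0.40 to -0.085. Olfml3, a secreted protein of the olfactomedin family made by microglia, had 339, 283 and 245 in the wild type libraries 1, 2 and 3, beside 229.8, 244 and 194 in the Fezf2 KO libraries 1, 2 and 3. Every Fezf2 KO value lay below every wild type value, though Fezf2 KO 2 and wild type 3 were almost equal (log2 -0.37, SE 0.148, limma adjusted p = 0.496). The Olfml3 difference was -0.25 without wild type 1.

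The largest difference among the members was that of Mrc1 (entry kgCluster13175), the mannose receptor CD206 of border macrophages. It had 72.98, 27.1 and 21.5 in the wild type libraries 1, 2 and 3, beside 8.12, 14.4 and 7.95 in the Fezf2 KO libraries 1, 2 and 3. Wild type 1 was the highest library, and all Fezf2 KO libraries lay below wild type 2 and 3 as well (log2 -1.74, SE 0.459, limma adjusted p = 0.21). The corresponding reads were 78, 31 and 25 in wild type and 10, 16 and 9 in Fezf2 KO. On these reads the adjusted p of Mrc1 was 0.229 by edgeR and 0.0503 by DESeq2, just above the threshold of 0.05. Without wild type 1 the Mrc1 difference was -1.22 (limma adjusted p = 0.354), and without both wild type 1 and Fezf2 KO 1 it was -1.10 (0.516). Within litter m1 it was -1.94, and in litter m2, with 1 library per genotype, -1.33. Cd163, a haemoglobin scavenger receptor of the same cells, did not pass the filter and had 17.8, 5.24 and 6.02 in wild type against 4.06, 12.6 and 4.42 in Fezf2 KO. Its 2 highest libraries were wild type 1 and Fezf2 KO 2, so its order over the libraries differed from that of Mrc1. Lyz2, lysozyme of macrophages and granulocytes, had 73.9, 45.4 and 53.3 in wild type against 47.9, 56.6 and 43.3 in Fezf2 KO (log2 -0.20, and -0.0062 without wild type 1).

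Other genes of border macrophages were measured beside Mrc1. Of 10 listed, 8 were in the table and 2 passed the filter, and their summed level was 947, 587 and 362 in the wild type libraries 1, 2 and 3, beside 549.7, 559 and 449 in the Fezf2 KO libraries 1, 2 and 3. The sum was mostly Stab1, a scavenger receptor also made by some endothelial cells, which had 701, 555 and 347 in wild type against 525, 538 and 427 in Fezf2 KO, so it says little about the other 7 genes. Lyve1, a hyaluronan receptor, had 92.6, 6.98 and 2.58 in the wild type libraries 1, 2 and 3, beside 0.81, 2.69 and 4.42 in the Fezf2 KO libraries 1, 2 and 3. Pf4, the chemokine platelet factor 4, had 55.2, 3.49 and 5.16 in wild type against 8.93, 5.39 and 3.53 in Fezf2 KO, and F13a1, coagulation factor XIII A chain, had 74.9, 13.1 and 2.58 in wild type against 12.2, 8.08 and 8.83 in Fezf2 KO. In all 3 of these genes wild type 1 was far above the other 5 libraries, which included wild type 2 and 3. The meningeal genes were also highest in wild type 1, whose sum (8632) compares with 1096 to 1649 in wild type 3 and 2. Of the 10 meningeal genes 7 were tested and 0 changed. Their part in the wild type 1 values of Mrc1 was not tested. Between wild type 2 and 3 and the Fezf2 KO libraries, where Mrc1 also differed, Lyve1, Pf4, F13a1 and Stab1 overlapped, as did the meningeal sum. Cbr2, a carbonyl reductase of the same border macrophage list, did not overlap, with 15.9, 2.62 and 1.72 in wild type against 0.81, 0 and 0.88 in Fezf2 KO, and neither did the meningeal gene Lum, with 32.8, 9.60 and 10.3 in wild type against 5.68, 3.59 and 0.88 in Fezf2 KO. Both were lower in Fezf2 KO like Mrc1, and both were below the level needed for testing.

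**Figure D3:**
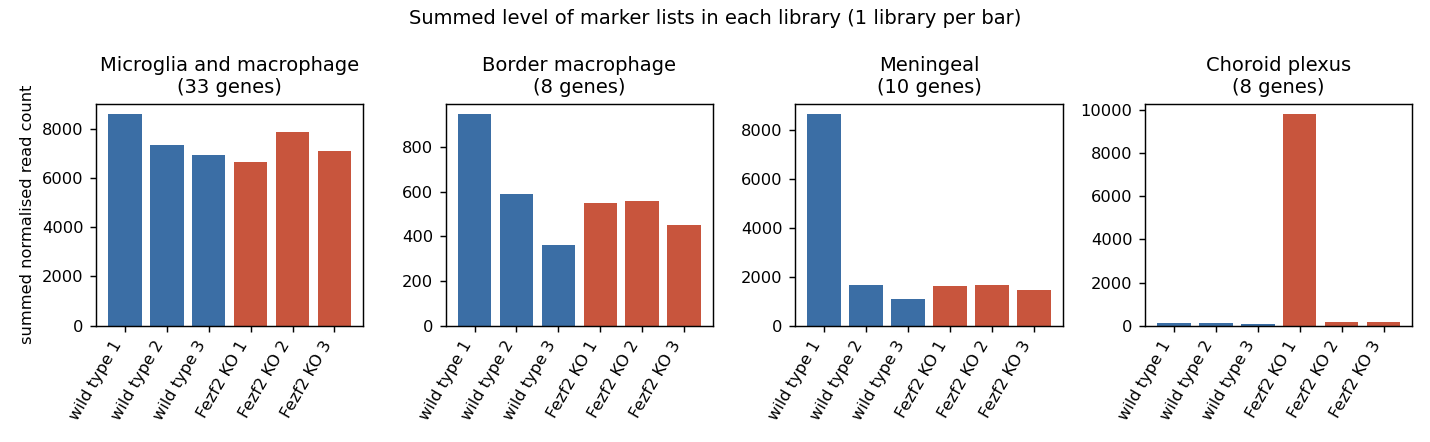
Summed normalised read count (vertical axes, each starting at 0 and scaled separately) of 4 marker lists in each of the 6 libraries; wild type bars are blue, Fezf2 KO bars are red, and each bar is 1 library with no error. Wild type 1 is highest for border macrophage and meningeal genes, Fezf2 KO 1 is the library with choroid plexus genes, and the microglia and macrophage sum stays between 6648 and 8604.

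Stretches of promoter are printed for Mrc1 and Tlr2, the members with the smallest p, and for C1qb and C1qc, with log2 differences of -0.012 and 0.083. Other members, such as Lcp1 (0.0038) and Cd68 (0.0058), had smaller differences than C1qc. Each is the 250 bases before the RefSeq start site in GRCm38.p6, written along the gene's strand. Capitals mark matches on either strand to GAGGAAG, the purine-rich form bound by PU.1, the lineage factor of macrophages, or to GGAAGT, the general core of ETS factors. A match on the opposite strand appears as CTTCCTC or ACTTCC, and the 2 motifs can overlap.
Mrc1 (chr2:14229164-14229413, plus strand): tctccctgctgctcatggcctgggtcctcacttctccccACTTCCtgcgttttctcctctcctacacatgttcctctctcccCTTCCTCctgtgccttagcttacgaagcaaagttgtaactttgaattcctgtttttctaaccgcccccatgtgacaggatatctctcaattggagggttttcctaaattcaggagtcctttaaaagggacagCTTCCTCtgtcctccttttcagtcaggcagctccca
Tlr2 (chr3:83841609-83841858, minus strand): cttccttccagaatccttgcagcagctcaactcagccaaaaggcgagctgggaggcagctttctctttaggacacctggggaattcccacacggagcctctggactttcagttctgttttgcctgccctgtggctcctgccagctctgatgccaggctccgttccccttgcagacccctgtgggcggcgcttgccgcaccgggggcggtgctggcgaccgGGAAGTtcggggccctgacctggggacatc
C1qb (chr4:136886201-136886450, minus strand): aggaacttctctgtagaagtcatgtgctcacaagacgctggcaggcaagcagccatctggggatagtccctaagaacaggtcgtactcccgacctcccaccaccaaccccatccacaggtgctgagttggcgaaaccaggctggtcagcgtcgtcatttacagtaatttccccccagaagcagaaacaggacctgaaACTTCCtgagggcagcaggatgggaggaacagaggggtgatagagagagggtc
C1qc (chr4:136892915-136893164, minus strand): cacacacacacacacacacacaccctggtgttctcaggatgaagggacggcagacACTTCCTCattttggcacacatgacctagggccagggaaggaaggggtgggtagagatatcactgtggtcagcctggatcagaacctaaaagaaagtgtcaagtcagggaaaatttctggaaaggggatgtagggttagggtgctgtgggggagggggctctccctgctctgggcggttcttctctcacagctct
The upstream stretch of Mrc1 held 3 matches, that of C1qc 2 that overlap, and those of Tlr2 and C1qb 1 each. These 4 stretches do not stand for all members, since not every member held a match. Promoter windows of 300 bases (250 before and 50 after the start) were found for 26 of the 33 members, 29 windows in all. GAGGAAG occurred in 9 of the 29 windows (31.03%) and in 13.6% of all 32851 windows. GGAAGT occurred in 14 of 29 (48.3%) and in 23.8% of all windows. Either motif was found for 17 of the 26 members and for 35.1% of all genes with a window. A match is a stretch of letters and does not show binding.

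High and low values of the members gathered in single libraries. Of the 33 genes, 21 had their highest value in wild type 1, 8 in Fezf2 KO 2, 3 in wild type 2 and 1 in wild type 3. The lowest value fell in Fezf2 KO 1 for 12 genes, in wild type 3 for 9 and in Fezf2 KO 3 for 8. The mean of the centred log2 values (each gene's value minus its mean over 6 libraries) was 0.30, 0.033 and -0.075 in wild type 1, 2 and 3. It was -0.18, 0.057 and -0.13 in Fezf2 KO 1, 2 and 3. Fezf2 KO 2 therefore lay above wild type 2 and 3, and the genotypes overlapped on this scale. The summed level of the 33 genes was 8604, 7348 and 6946 in the wild type libraries 1, 2 and 3, beside 6648, 7875 and 7121 in the Fezf2 KO libraries 1, 2 and 3. The ratio of the genotype means of this sum was 0.945, and it was 1.01 without wild type 1.

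**Figure D4:**
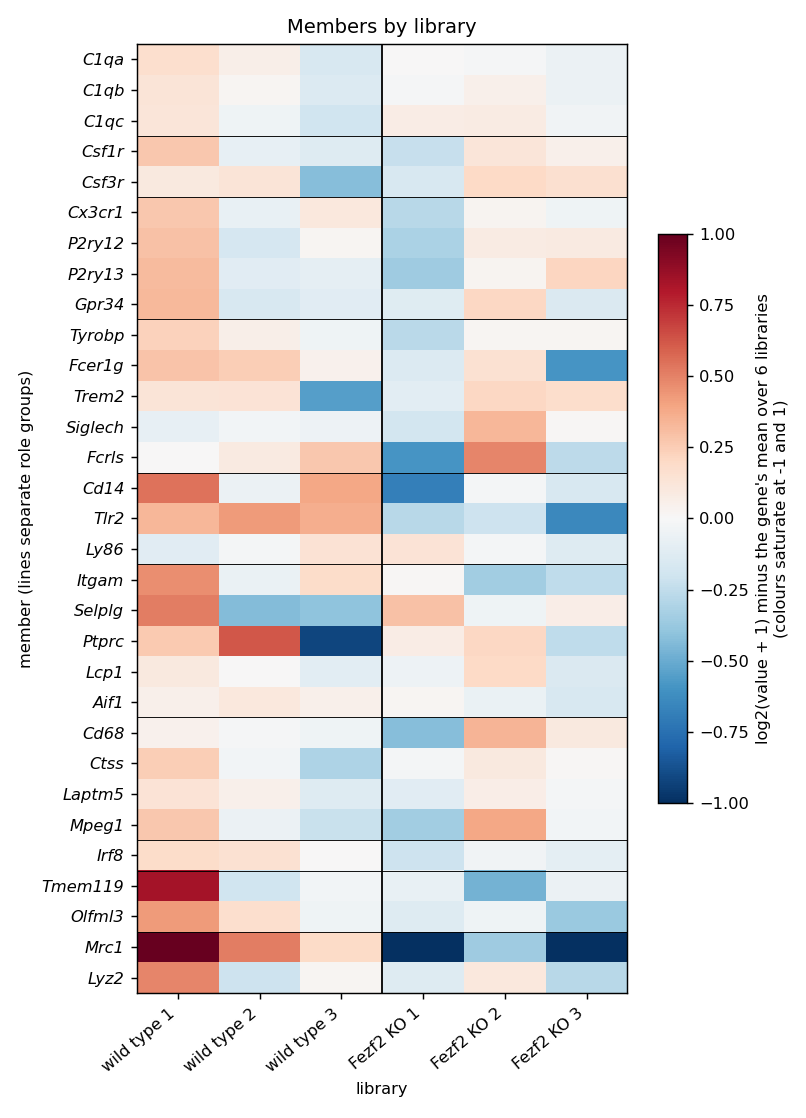
Centred log2 values (colour; red above and blue below the gene's own mean over 6 libraries) of the 31 members tested (rows, separated by role) in the 3 wild type and 3 Fezf2 KO libraries (columns). The wild type 1 column is mostly red and the Fezf2 KO 1 column mostly blue, and Mrc1 and Tlr2 are the rows in which the genotypes separate most.

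With litter as a block in the limma fit 0 members changed, where 0.786% of all genes did. The genotype difference was also taken within each litter. In litter m1, with 2 libraries per genotype, 26 of 31 members were lower in Fezf2 KO and the median log2 difference was -0.12, where 47.7% of all genes tested were lower. In litter m2, with 1 library per genotype, 15 of 31 were lower and the median was 0.063, where 52.4% of all genes were lower. The sign differed between the litters for 15 members, was negative in both for 13 and positive in both for 3. Litter m1 held both wild type 1 and Fezf2 KO 1, the highest and the lowest library for these genes. A test of the difference between litters in limma passed for 0 members (1 member, Trem2, had an unadjusted p under 0.05, at 0.0369, as had 2.64% of all genes), and 0.0057% of all genes passed it.

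Further genes of microglial biology were examined in 9 lists, of which 79 genes were tested. By limma 0 of 79 changed, as did 0 by edgeR and 3 by DESeq2, Arhgap25 and Lpl among them. Over all genes tested, limma called 0.712%, edgeR 0.689% and DESeq2 2.3%. At an unadjusted limma p under 0.05, 5 of 79 were lower and 3 higher, where 4.37% of all genes tested were lower and 4.66% higher. The median log2 difference of the 79 genes was -0.020. Of 19 further genes shared by microglia, Arhgap25, a GTPase-activating protein of leukocytes, had the smallest p. It had 194, 255 and 219 in the wild type libraries 1, 2 and 3, beside 132, 138 and 124 in the Fezf2 KO libraries 1, 2 and 3, with no overlap between genotypes (log2 -0.75, SE 0.134, limma adjusted p = 0.0576, DESeq2 adjusted p = 0.00175). Rnase4, a secreted ribonuclease, had 270.2 ± 71.4 in wild type and 209 ± 16.8 in Fezf2 KO (log2 -0.34, and -0.075 without the pair). Emr1, the gene of the macrophage marker F4/80, had 80.04 ± 15.8 in wild type and 75.3 ± 19.00 in Fezf2 KO, given here as the best known of the list although its p was not among the smallest.

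Of 12 myeloid transcription factors 0 changed. PU.1, listed under its older symbol Sfpi1 and named outside the rule because its motif was searched, had 171, 156 and 129 in wild type against 128, 157 and 169.6 in Fezf2 KO (log2 -0.0040, 95% interval -0.37 to 0.36). Ikzf1, a lymphoid zinc finger gene that striatal neurons also use, had 337, 243 and 251 in wild type against 47.9, 238 and 126 in Fezf2 KO (log2 -1.27, SE 0.488, limma adjusted p = 0.471). Of 12 striatal neuron genes, 11 had a log2 difference below 0 and 1 above, with a median of -1.21. Their summed level was 12478, 17963.5 and 13693 in the Fezf2 KO libraries 1, 2 and 3, beside 17567 to 21471 in wild type. Much of this sum was Foxp1, which varied little, with 8903, 8979 and 8607 in Fezf2 KO against 8940 to 9221 in wild type. Fezf2 KO 1 was lowest for both Ikzf1 and this sum, followed by Fezf2 KO 3. The part of the striatal genes in the Ikzf1 result was not tested. The Ikzf1 difference was -0.66 without Fezf2 KO 1 and -0.51 without the pair.

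Among signals that reach microglia, limma called 0 of 10 ligand genes and 0 of 8 tested receptor genes, where it called 0.712% of all genes. Among the ligands the smallest p belonged to Tgfb2, with 900.3 ± 96.9 in wild type and 789.8 ± 142 in Fezf2 KO, and to Cxcl12, with 1586 ± 290.1 in wild type and 1390.3 ± 34.9 in Fezf2 KO. Without the pair their log2 differences went from -0.20 to -0.088 and from -0.17 to -0.024. The log2 differences of the 10 ligands ran from -0.20 to 0.14. Of the receptors, Cxcr4, which neurons also use during migration, had 1744, 1759 and 1899 in wild type against 2197, 1934 and 2085 in Fezf2 KO (log2 0.20, SE 0.0688, limma adjusted p = 0.375). Tgfbr2, a receptor for TGF-beta, had 594 ± 102 in wild type and 664 ± 57.98 in Fezf2 KO (log2 0.17).

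Complement genes outside C1q held 0 changes among 7 tested. Cd55, which encodes an inhibitor of complement on cell surfaces, had 58.01, 62.8 and 52.4 in wild type against 36.5, 35.9 and 24.7 in Fezf2 KO, with no overlap (log2 -0.83, SE 0.208, limma adjusted p = 0.177). C4b, complement component 4, had 103, 48.9 and 61.9 in wild type against 19.5, 40.4 and 45.9 in Fezf2 KO (log2 -1.01, SE 0.373, limma adjusted p = 0.436), also with no overlap between the genotypes. Wild type 1 was the highest and Fezf2 KO 1 the lowest library for C4b, and its difference was -0.64 without Fezf2 KO 1 and -0.35 without the pair. The 10 lysosomal genes that microglia express strongly, Ctsd among them, had log2 differences between -0.11 and 0.11. The 2 with the smallest p were Ctsb, cathepsin B, with 11351 ± 706 in wild type and 10493 ± 412 in Fezf2 KO, and Cd63, a tetraspanin of late endosomes, with 839 ± 44.5 in wild type and 789 ± 11.2 in Fezf2 KO. Many cell types of the cortex make these lysosomal proteins.

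Genes of the amoeboid microglia found in developing white matter held 0 changes among 8 tested. Lpl, lipoprotein lipase, which neurons also make, had 3429, 3952 and 3898 in wild type against 5867, 4599 and 5479.6 in Fezf2 KO (log2 0.49, SE 0.0961, limma adjusted p = 0.0774, DESeq2 adjusted p = 0.000107). It passed the limma test without Fezf2 KO 2 (adjusted p = 0.0251). Lgals3, galectin-3, had 62.7, 77.7 and 78.2 in wild type against 44.7, 52.1 and 59.2 in Fezf2 KO, with every Fezf2 KO value below the wild type values (log2 -0.48, SE 0.178, limma adjusted p = 0.44). Clec7a, a receptor of that state, was at 0 in 4 libraries and at 1 read in the other 2. Other genes of the list were well above that level. Spp1 had 294, 116 and 168 in wild type against 81.2, 211 and 65.4 in Fezf2 KO. Igf1 had 112, 82.0 and 106 in wild type against 78.8, 170 and 111 in Fezf2 KO. The cytokine genes of the inflammatory list had few reads. Ccl3, a chemokine placed in the amoeboid list, had more, with 26.8 ± 7.80 in wild type and 39.95 ± 11.8 in Fezf2 KO (log2 0.56, limma adjusted p = 0.663). Il1b, interleukin-1 beta, had 0 reads in all 3 wild type libraries, which allows up to 3 reads in each, and 0.81, 0 and 0.88 in Fezf2 KO 1, 2 and 3. Il1a, Tnf, Ccl2 and Cxcl10 had at most 7 reads in any library. Of 9 inflammatory genes in the table, 3 were tested and 0 changed. Nlrp3, an inflammasome sensor, had 17.7 ± 6.83 in wild type and 12.9 ± 0.343 in Fezf2 KO (log2 -0.36, and -0.083 without wild type 1), and Nfkbia, an inhibitor of NF-kappa B, had 1597 ± 175 in wild type and 1699 ± 33.8 in Fezf2 KO.

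Of 46 markers of other cells that could be tested, limma and edgeR called 0 and DESeq2 called 1, the striatal gene Penk (adjusted p = 0.000871). At an unadjusted p under 0.05 by limma, 9 were lower, all of them among the 12 striatal neuron genes, and 5 were higher. Of all genes tested, 4.37% were lower and 4.66% higher at that p, and DESeq2 called 2.3%. Endothelial genes (10 tested) summed to 9582 to 11949 in wild type and 11681 to 12817 in Fezf2 KO, with a median log2 difference of 0.13. Those of pericytes (6 tested) summed to 3624 to 4819 and 4578 to 5173 (median 0.19). Erythroid genes (5 tested) summed to 14925 to 17038 and 12402 to 20606 (median -0.064). The exons of 5 members (Csf1r, P2ry12, Cx3cr1, Itgam and Lcp1) overlap those of another gene in GENCODE M21. For Csf1r, P2ry12, Cx3cr1 and Lcp1 the overlapping gene lies on the opposite strand. Strand is not stated for these libraries, so some reads of these members may belong to the overlapping gene. For Itgam the overlapping gene lies on the same strand, so strand would not separate its reads.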

How the data were processed

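Per the labels, TruSeq RNA libraries of total RNA were read on an Illumina Genome Analyzer II. The submitters' processing notes name STAR, Bowtie and DESeq without versions, and the build mm9. Gene annotation, strand and filters are not given in the sources used here. The authors deposited 1 signal value for each of 23016 genes in each library: its reads after division by a library size factor, rounded, with no scaling to gene length. The value of 1 read was 0.812 to 0.936, and 100.0% of values were whole multiples of it within 0.006, which gave back 44978380 to 52872577 reads per library. Where no read was found, up to 3 are allowed, for counting error only. P-values measure the spread between 3 pups per genotype.

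The 17557 genes that reached a value of 10 in 3 or more libraries entered limma 3.58.1 with a variance trend on log2(value + 1), genotype as the single term, at a Benjamini-Hochberg adjusted p under 0.05. EdgeR 4.0.16 (121 genes called on the recovered reads) and DESeq2 1.42.0 were alternatives, in R 4.3.3. Python 3.11.15, pandas 2.3.3 and matplotlib 3.10.9 did the rest. The fits were run on simulated counts with the same spread for every gene. That run does not show how they perform for members with a wider spread. Members, lists and tests were chosen with earlier results of these data known, so no set test and no p over the list is given. All 33 members are named. Of the other lists the rule allows called genes and up to 4 genes per list with the smallest p. The first 2 of each microglia-related list are named, except a result that is not reported here, and other genes named (Ccr2, Emr1, Sfpi1, Ctsd, Clec7a, Il1b, Il1a, Tnf, Ccl2, Cxcl10, Lyve1, Pf4, Cbr2, Lum, Penk) were chosen after their values were seen. Older symbols matched 3 of 216 listed genes, and 14 had no row. Where a marker symbol had several rows, the highest was used. Labels tie pups to litters: m1 gave replicates 1 and 2 and m2 replicate 3 in each genotype. Transcript lengths and overlaps came from GENCODE M21 (GRCm38) by symbol, and promoters from RefSeq GRCm38.p6. No protein sequences were used here.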

Additional observations from a re-analysis of the deposited data

How the results depend on the processing

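The number of members called was 0 under every alternative: leaving out single libraries (0 to 0), a pseudocount of 0.5, an adjusted p threshold of 0.1 in limma, no filter, DESeq2, edgeR with TMM or RLE factors, the fit to litter m1, the replicate block, and, chosen after seeing the data, leaving out wild type 1 with Fezf2 KO 1. The threshold of 0.1 was applied to limma only. By DESeq2 the adjusted p of Mrc1 was 0.0503, which is above 0.05 but below 0.1. With litter as a replicate block limma called 138 of all genes in place of 125 and the smallest adjusted p of a member was 0.177, and the block changed no call of a member. Over all genes limma called 43 with no filter, 29 in litter m1, 77 when wild type 2 was left out, 74 for wild type 3, 61 for Fezf2 KO 3 and 57 for the pair of wild type 1 and Fezf2 KO 1, and DESeq2 called 403. The members at an unadjusted p under 0.05 numbered 2 to 5, and Mrc1 was among them each time. The median log2 difference ranged from -0.15 to 0.026 with 1 library left out, and was 0.055 without that pair, and the ratio of summed levels ranged from 0.902 to 1.01. Of the 31 members, 13 kept their sign under all 15 alternatives. For the others and for Stab1 and F13a1 the sign turned under at least 1 of them, and the cause was not tested. With 1 library, or wild type 1 and Fezf2 KO 1 together, left out, the log2 differences ran for C1qa from -0.13 to 0.030, C1qb from -0.084 to 0.055, Cd68 from -0.16 to 0.24, Csf1r from -0.11 to 0.19, Csf3r from -0.044 to 0.33, Ctss from -0.078 to 0.23, F13a1 from -1.63 to 0.57, Gpr34 from -0.15 to 0.17, Laptm5 from -0.12 to 0.064, Lcp1 from -0.094 to 0.081, Ly86 from -0.14 to 0.062, Lyz2 from -0.35 to 0.0091, Mpeg1 from -0.18 to 0.32, P2ry12 from -0.21 to 0.16, P2ry13 from -0.20 to 0.22, Ptprc from -0.43 to 0.34, Siglech from -0.030 to 0.23, Stab1 from -0.34 to 0.17, Trem2 from -0.037 to 0.40 and Tyrobp from -0.22 to 0.012. In litter m1 alone it turned for Csf3r (-0.091), Trem2 (-0.079), Ly86 (0.12), Ptprc (-0.30), Cd68 (-0.061), Ctss (-0.069) and Mpeg1 (-0.088). Ptprc also turned with edgeR (-0.11 with TMM and -0.11 with RLE) and DESeq2 (-0.11). Depth limits members with few reads: Cybb had 17 and Cd163 56 reads over all libraries.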
